A study of Mus musculus with 20 samples.

Results

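Insulin-like growth factor (IGF) signalling genes were followed across mouse CIC-DUX4 sarcomas and their cells of origin. The genes are the proteases Pappa and Pappa2, the ligands Igf1 and Igf2, the receptor Igf1r and the binding proteins Igfbp2, Igfbp3, Igfbp4, Igfbp5 and Igfbp7. Each probe set that the array's gene table assigns to just 1 of these symbols was taken. Of the 10 genes, 9 had probe sets, 23 in all, out of 17097 genes on the array; Igfbp7 is not analysed here. A filter on low values, described with the arrays, kept 21 of the 23 probe sets. The other 2, Pappa 1432592_PM_at and Igf1r 1452108_PM_at, were dim in nearly every array, and their values are given but not tested.

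IGF-1 and IGF-2 are secreted growth factors that act through the receptor tyrosine kinase encoded by Igf1r. In tissue most of the ligand is held by IGF binding proteins, which keep it from the receptor and lengthen its stay outside the cell. The pappalysins PAPP-A and PAPP-A2 are secreted metalloproteases that cut some of these proteins and so free the ligand: PAPP-A cuts IGFBP-4 and IGFBP-5, and PAPP-A2 cuts IGFBP-3 and IGFBP-5. Igf2 is an imprinted growth factor of embryonic mesenchyme. CIC is a transcriptional repressor that binds a short DNA octamer, and its fusion to DUX4 is known to turn on genes that CIC represses.

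The 20 arrays, 1 per sample, form 4 groups. CDS tumors (6 arrays) were individual sarcomas that had grown under the skin of Balb/c nude mice after transplantation of embryonic mesenchymal cells carrying CIC-DUX4 by retrovirus. ES tumors (6 arrays) were mouse tumors labelled Ewing sarcoma, also grown under the skin of Balb/c nude mice and left untreated; which cells they came from and what oncogene they carry is not given in the sources used here. eMC CIC-DUX4 (4 arrays) were primary embryonic mesenchymal cells collected 48 hours after transduction by spinofection with a pMYs retrovirus that carries CIC-DUX4 and, after an internal ribosome entry site, GFP. eMC empty (4 arrays) were the same kind of cells transduced with the vector that carries GFP alone, also at 48 hours. Both cultures were kept in Iscove's medium with fetal bovine serum. Nude mice lack mature T cells and keep their other stromal and blood cells, so tumor RNA is a mixture with RNA of the host. No mouse age is given in the sources used here, and the sources do not say whether the arrays of 1 culture group stem from separate dishes or cell preparations. The p-values then measure only how far these samples spread, which may be technical.

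The trimmed means of the arrays lay between 500.1 and 500.3 on the linear scale, yet the distributions differed, and this touches every value below. The 75th percentile of the log2 signal of an array was 4.83 to 8.92 in CDS tumors, 7.52 to 8.65 in ES tumors, 8.53 to 8.94 in eMC CIC-DUX4 and 4.10 to 6.97 in eMC empty. Signals of an array fall into a dim and a bright part with a dip of low density between them, and the share of probe sets above this dip was 11.7% to 57.6% in CDS tumors, 27.9% to 40.5% in ES tumors, 38.6% to 71.4% in 3 eMC CIC-DUX4 arrays and 11.1% to 27.0% in eMC empty; eMC CIC-DUX4 6 had no dip. In the 6 arrays with a 75th percentile under 6 (CDS 1, 5 and 6; eMC empty 4, 5 and 6) genes of moderate signal lay below the dip. Leaving out these 6 keeps a single eMC empty array, number 7, which is then assumed to vary like the group it is set against, so calls against eMC empty made that way rest on 1 array and say nothing of stability. Each result was therefore computed on the deposited scale and again after quantile normalization, and "rose" and "fell" are used only where a probe set was called in the same direction on both scales (adjusted p under 0.05, and a log2 fold change of 1 or more in size) and was not below the dip in every array of both groups. Actb probes at the 3′ end exceeded those at the 5′ end, as happens in degraded RNA, by 0.31 to 1.28 log2 in CDS tumors, 0.17 to 0.31 in ES tumors, 0.19 to 0.23 in eMC CIC-DUX4 and 0.13 to 0.20 in eMC empty; its part in the results was not tested.

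Markers were set against the labels. Muc5ac, a CIC-DUX4 target gene, had log2 signals of 13.78 to 15.64 in CDS tumors and was below the dip in all ES tumors, at 2.02 to 2.74. Etv4, an ETS factor that CIC represses, was at 12.26 to 14.15 in CDS tumors and at 2.44 to 6.99 in ES tumors. Its relatives Etv1 and Etv5 were above the dip in 6 of 6 CDS tumors and also in 6 of 6 ES tumors, at 7.97 to 10.89 and 8.84 to 11.86, and rose in ES tumors against eMC empty (5.39 and 5.24). Vgf, another CIC-DUX4 target gene, was above the dip in 6 of 6 CDS and 2 of 6 ES tumors. In eMC CIC-DUX4 against eMC empty Etv1, Etv5 and Vgf rose by 5.12, 5.32 and 7.75, whereas Etv4 gave 0.66 (adjusted p = 0.676) and Muc5ac 1.66 (adjusted p = 0.239). Among 3 genes known as high in human Ewing sarcoma, Nr0b1 was below the dip in all 6 ES tumors, at 1.41 to 1.80, and Nkx2-2 was above it in 1 of 6. Prkcb was above the dip in 5 of 6 ES tumors, and in 5 of 6 CDS tumors as well. The ES tumors are therefore named by their label only. Of the 10 mesenchymal markers, 10 were above the dip in most eMC CIC-DUX4 arrays and 8 in most CDS tumors. The count was 7 in ES tumors and 6 in eMC empty. Col1a2 and Twist1 were below the dip in all ES tumors, and Col1a2 also in all eMC empty arrays. In CDS tumors Col1a2 was above it in 1 of 6 and Pdgfra in 2 of 6.

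The 13 promoters of 9 of the 10 genes in the RefSeq table (build GRCm38.p6; 250 bases before to 50 after each start) were searched on both strands for the CIC octamers TGAATGAA, TGAATGGA, TCAATGAA and TCAATGGA. The promoter of Pappa was not analysed here. Only 1 of the 13 held a match, the promoter of Pappa2. It lies on the minus strand at chr1:158958126-158958425, and the octamer, in capitals, starts at position 262 counted from 1 at the 5′ end, past the annotated start.
Pappa2 promoter: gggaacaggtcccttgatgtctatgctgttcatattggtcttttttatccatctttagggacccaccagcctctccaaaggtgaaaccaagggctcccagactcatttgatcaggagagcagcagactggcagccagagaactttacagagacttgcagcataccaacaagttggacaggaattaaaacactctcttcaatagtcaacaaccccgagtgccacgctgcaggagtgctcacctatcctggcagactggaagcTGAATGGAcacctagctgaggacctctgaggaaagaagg
Of all 32851 promoters in the table, 1.21% held TGAATGGA and 3.84% held any of the 4 octamers. The match describes the letters of the window, and binding was not measured.

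The protease gene Pappa2 was bright in 1 group and below the dip in the other 3. Probe set 1444451_PM_at had log2 signals of 10.32, 10.20, 10.34 and 10.27 in eMC CIC-DUX4 against 3.58, 4.06, 3.40 and 3.09 in eMC empty. All 4 eMC empty arrays lay below the dip and the groups did not overlap. Pappa2 rose by 6.75 ± 0.36 log2 (SE; adjusted p = 1.58e-05; quantile 4.79 ± 0.17), which is at least 10.8-fold against the dip. With arrays shifted to the same median the value was 5.19 with an adjusted p of 0.162. In the tumors Pappa2 was not above the dip: CDS tumors were at 2.35 to 3.92 with a median of 3.19, below the dip in 6 of 6, and ES tumors were at 1.73 to 2.38 with a median of 2.09, below it in 6 of 6. Against eMC CIC-DUX4, CDS tumors were at least 23.0-fold lower (-7.08 ± 0.81, adjusted p = 3.49e-05; quantile -6.16 ± 0.40). Pappa2 was thus bright in 4 of 4 eMC CIC-DUX4 arrays, of which number 6 has no dip. It was below the dip in 4 of 4 eMC empty arrays and 12 of 12 tumor arrays.

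Pappa, the other protease gene, was brightest in eMC CIC-DUX4 and in some ES tumors. Its brightest probe set, 1432591_PM_at, had log2 signals of 3.34, 4.43 and 7.67 (lowest, median and highest) in CDS tumors and 5.60, 8.85 and 10.95 in ES tumors. In eMC CIC-DUX4 it was at 10.55, 10.51, 10.67 and 10.65, and in eMC empty at 6.13, 5.89, 9.16 and 9.96. The eMC CIC-DUX4 arrays were close to each other and above every eMC empty array, whereas CDS tumors, ES tumors and eMC empty overlapped, and ES 51, at 10.95, was above all eMC CIC-DUX4 arrays. CDS tumors fell below eMC CIC-DUX4 by 5.45 ± 0.92 log2 (adjusted p = 0.000905; quantile -5.16 ± 0.40), and the other tested probe set, 1427633_PM_a_at, fell with it (-4.30 ± 0.93, adjusted p = 0.00534; quantile -2.72 ± 0.27). eMC CIC-DUX4 against eMC empty gave 2.81 ± 0.87 (adjusted p = 0.0214) for 1432591_PM_at and, after quantile normalization, 0.93 ± 0.08, under the minimum change. For 1427633_PM_a_at it gave 4.06 ± 0.59 (adjusted p = 0.0003) and, after quantile normalization, 0.66 ± 0.28 (adjusted p = 0.0654). CDS against ES tumors gave a fall of 3.52 ± 1.09 for 1432591_PM_at (adjusted p = 0.0287, quantile -3.04 ± 0.83). That call was lost without CDS 6, ES 46, ES 47 or ES 51 (highest adjusted p 0.0833). It was also lost without the 6 arrays of low 75th percentile (-2.67, adjusted p = 0.161). Probe set 1427633_PM_a_at was not called there (-1.34 ± 0.92, adjusted p = 0.285; quantile -1.38 ± 0.47). The untested probe set 1432592_PM_at was between 1.56 and 6.45 in all 20 arrays.

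**Figure D1:**
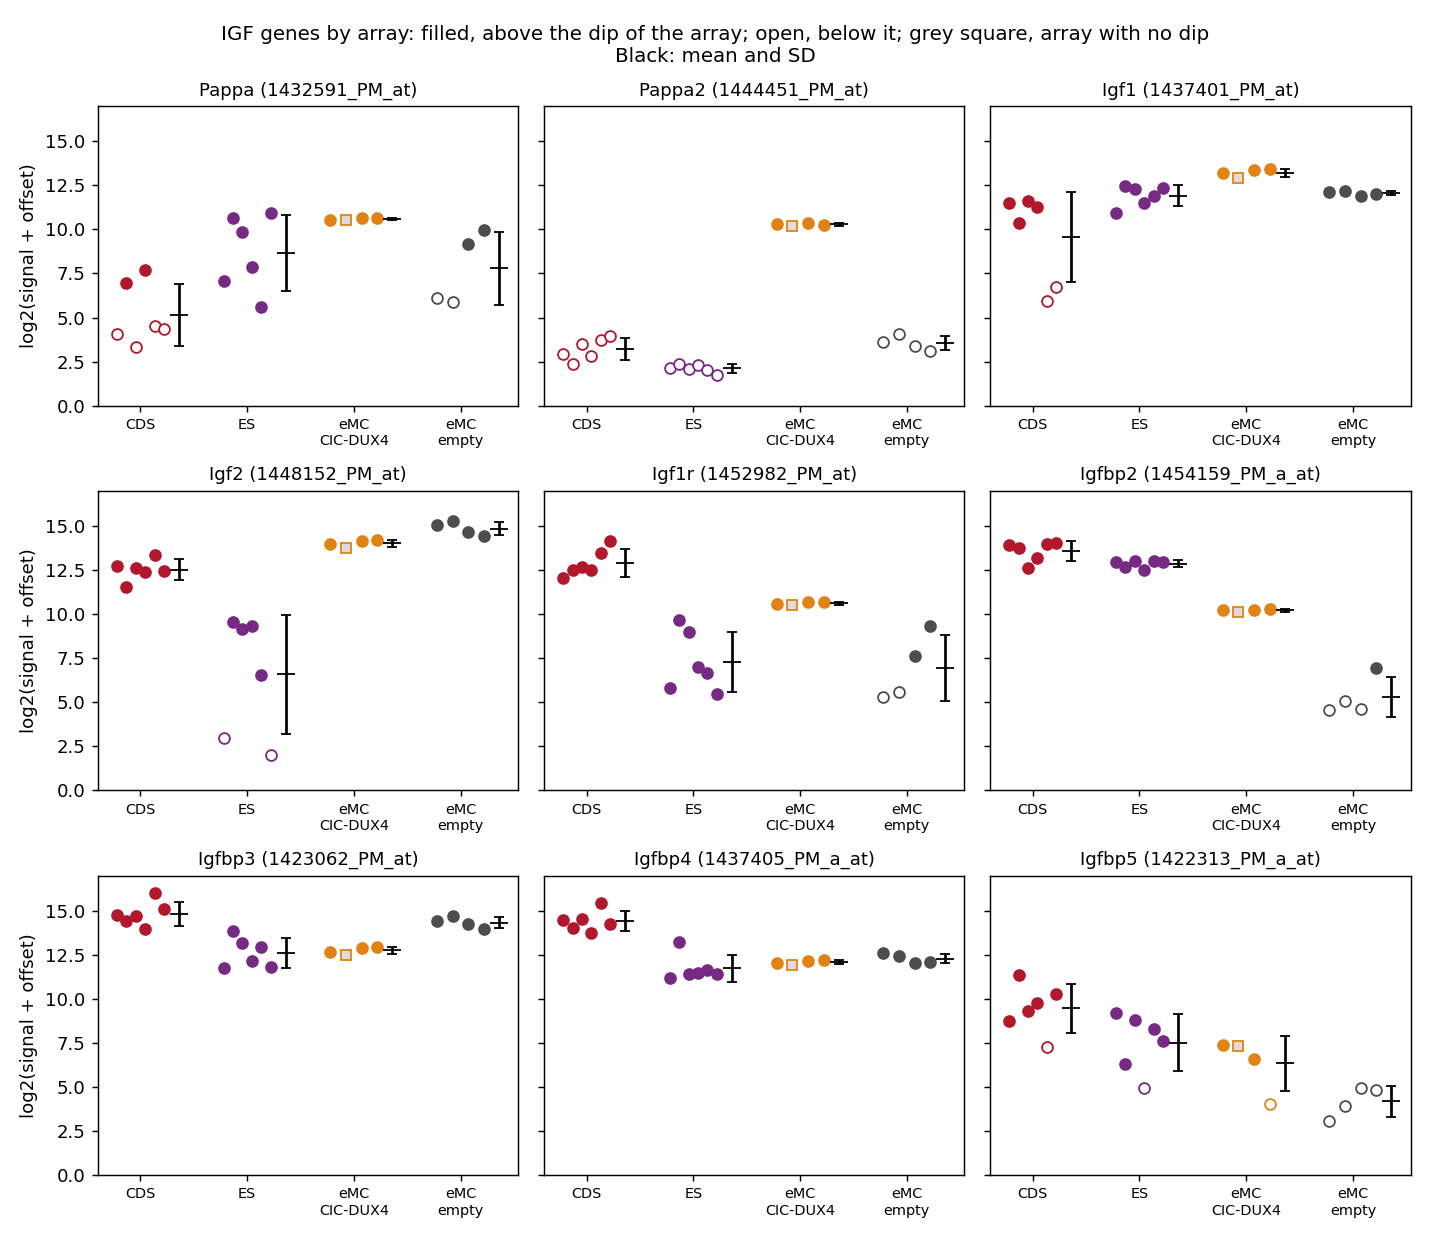
Log2 signal (plus the offset) of 1 probe set for each of 9 IGF genes in every array, by group, with group mean and SD in black; filled points lie above the dip of their array, open points below it, and the grey square marks the array with no dip. Pappa2 is bright only in the 4 eMC CIC-DUX4 arrays (10.20 to 10.34), Igf2 spans 1.99 to 9.54 in ES tumors, and Igfbp2 is bright in all CDS and ES tumors.

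The ligand Igf1 was highest in eMC CIC-DUX4 in all 4 of its probe sets. Probe set 1437401_PM_at had log2 signals of 5.91, 10.84 and 11.64 (lowest, median and highest) in CDS tumors, and 10.96, 12.09 and 12.46 in ES tumors. In eMC CIC-DUX4 it was at 13.21, 12.92, 13.38 and 13.41, and in eMC empty at 12.11, 12.19, 11.90 and 12.04. The eMC CIC-DUX4 values lay above every other array, and CDS 5 and CDS 6, at 5.91 and 6.76, lay far under the remaining CDS tumors. Igf1 rose in eMC CIC-DUX4 against eMC empty in 4 of 4 probe sets, by 1.17 to 3.51 log2 (quantile 1.31 to 1.97; for 1437401_PM_at 1.17 ± 0.15, adjusted p = 0.000115). In 3 of the 4 the deposited rise was smaller than the median of all probe sets, 1.98, so that with arrays shifted to the same median they turned to -0.10, -0.39 and -0.14, and with all 4 groups in 1 fit they were not called (adjusted p 0.161 to 0.236). The fourth, 1419519_PM_at, rose by 3.51, and by 1.55 without the 6 arrays of low 75th percentile. Against eMC CIC-DUX4 it fell in CDS tumors in 4 of 4, with log2 fold changes between -4.19 and -3.65 (quantile -4.75 to -3.44); without the 6 arrays of low 75th percentile they were between -2.63 and -2.10 and still called. The call of 1434413_PM_at was lost without eMC CIC-DUX4 6 (adjusted p = 0.0514), and all 4 were lost without the 3 arrays of high median (CDS 2, eMC CIC-DUX4 5 and 6; adjusted p 0.0611 to 0.0958).

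Igf1 in CDS tumors was less certain against ES tumors and eMC empty. CDS against ES tumors was called lower in 3 of 4 probe sets, by -2.79 to -2.34 log2, with groups that overlap. Without the 6 arrays 1434413_PM_at gave -0.86 (adjusted p = 0.159) and 1437401_PM_at gave -0.81 (adjusted p = 0.128), and only 1452014_PM_a_at stayed called (-1.23, adjusted p = 0.0431). The call of 1434413_PM_at was also lost without any 1 of CDS 5, CDS 6, ES 46, ES 47, ES 48, ES 49 or ES 51, that of 1437401_PM_at without any of these or CDS 2 or ES 41, and that of 1452014_PM_a_at without CDS 5, ES 47, ES 49 or ES 51. CDS against eMC empty gave -2.77 to -0.32 as deposited (lowest adjusted p 0.0576) and -3.44 to -1.61 after quantile normalization, where all 4 were called. ES against eMC empty was called on neither scale for 3 of the 4 Igf1 probe sets, and 1419519_PM_at gave 1.97 ± 0.75 as deposited against -0.36 ± 0.36 after quantile normalization.

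Igf2, the other ligand, was high in cultured cells and in CDS tumors and low or absent in ES tumors. Probe set 1448152_PM_at had log2 signals of 11.57, 12.55 and 13.36 (lowest, median and highest) in CDS tumors and 1.99, 7.86 and 9.54 in ES tumors. In eMC CIC-DUX4 it was at 13.97, 13.73, 14.17 and 14.20, and in eMC empty at 15.06, 15.27, 14.68 and 14.43. Every CDS tumor was above every ES tumor and below every culture. Igf2 rose in CDS against ES tumors by 5.94 ± 1.07 log2 (adjusted p = 0.000672; quantile 6.19 ± 0.95). It fell in CDS tumors by 2.34 ± 0.31 against eMC empty (adjusted p = 1.53e-05; quantile -1.74 ± 0.17) and by 1.49 ± 0.28 against eMC CIC-DUX4 (adjusted p = 0.00202; quantile -2.19 ± 0.17), though with all 4 groups in 1 fit the adjusted p was 0.0962 and 0.280. ES tumors fell against eMC empty by 8.28 ± 1.41 (adjusted p = 0.000534; quantile -7.92 ± 1.16); without eMC empty 4, 5 and 6 the value was -7.84 with an adjusted p of 0.107 and a lone eMC empty array that is assumed to vary like the ES tumors. Between the cultures it was not called: -0.84 ± 0.18 as deposited and 0.45 ± 0.03 after quantile normalization, in opposite directions.

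The spread of Igf2 within ES tumors was wide. ES 46, 47, 48 and 49 were at 9.54, 9.18, 9.32 and 6.53, while ES 41 and ES 51 were below the dip at 2.94 and 1.99. Skeletal muscle markers, such as Ckm and Acta1, had summed linear signals of 164157, 34866, 237853 and 103444 in ES 46, 47, 48 and 49, against 21981 in ES 41 and 24.2 in ES 51; their part in this spread was not tested. In CDS tumors the muscle sum was 1134, 1458 and 2328 in CDS 1, 2 and 6 and 340811, 133950 and 221707 in CDS 3, 4 and 5, while Igf2 was at 12.74, 11.57 and 12.47 in CDS 1, 2 and 6 and at 12.64, 12.38 and 13.36 in CDS 3, 4 and 5. In RNA of bulk tumors, fewer cells of a type and less RNA per cell cannot be told apart. The second Igf2 probe set, 1415931_PM_at, differed in its levels. It was at 9.03, 9.18, 9.06 and 8.27 in eMC CIC-DUX4. It was below the dip in 5 of 6 CDS tumors, 6 of 6 ES tumors and 3 of 4 eMC empty arrays. Like 1448152_PM_at, it rose in CDS against ES tumors (1.64, quantile 1.13) and fell in CDS tumors against eMC CIC-DUX4 (-5.39, quantile -4.20). It fell likewise in ES tumors against eMC empty (-4.17, quantile -6.12). CDS tumors against eMC empty gave -2.54, not called as deposited (adjusted p = 0.0566), and -4.99 after quantile normalization. Between the cultures it gave 2.85 as deposited and -0.79 after quantile normalization. In CDS tumors 1415931_PM_at averaged 3.50 ± 0.73 and 1448152_PM_at 12.52 ± 0.58 (SD, n = 6), and levels of different probe sets are not compared.

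The receptor gene Igf1r was higher in CDS tumors than in ES tumors or eMC empty in all 3 tested probe sets. Probe set 1452982_PM_at had log2 signals of 12.06, 12.59 and 14.17 (lowest, median and highest) in CDS tumors, and 5.47, 6.83 and 9.69 in ES tumors. In eMC CIC-DUX4 it was at 10.57, 10.52, 10.69 and 10.66, and in eMC empty at 5.26, 5.56, 7.59 and 9.31. The order was CDS, then eMC CIC-DUX4, then ES tumors and eMC empty, which overlapped. Igf1r rose in CDS tumors by 5.63 ± 0.65 against ES tumors (adjusted p = 4.82e-06; quantile 6.14 ± 0.59) and by 2.29 ± 0.37 against eMC CIC-DUX4 (adjusted p = 0.000587; quantile 2.48 ± 0.28). Probe set 1428967_PM_at rose against eMC CIC-DUX4 by 1.75 (adjusted p = 0.00285), a call lost with all 4 groups in 1 fit (adjusted p = 0.223) and without the 3 arrays of high median (adjusted p = 0.0790). The third, 1426565_PM_at, was not called against eMC CIC-DUX4 as deposited, with groups that overlap (0.55 ± 0.82, adjusted p = 0.661; quantile 2.13 ± 0.35). Against ES tumors 1428967_PM_at rose by 7.18 ± 1.00 (quantile 6.85 ± 0.67) and 1426565_PM_at by 5.21 ± 1.11 (quantile 4.98 ± 0.57). For 1426565_PM_at the lowest CDS tumor, at 5.81, lay under the highest ES tumor (7.25) and the highest eMC empty array (7.72).

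Against eMC empty the size of the Igf1r difference depended on the 6 arrays of low 75th percentile. In CDS tumors 1452982_PM_at rose by 5.97 ± 0.69 log2 (adjusted p = 3.3e-06; quantile 3.98 ± 0.28), 1428967_PM_at by 6.45 ± 0.77 (quantile 4.51 ± 0.34) and 1426565_PM_at by 3.98 ± 1.03 (quantile 1.91 ± 0.35). Without those 6 arrays, against eMC empty 7 alone, the 3 values were 3.26, 3.57 and 2.56. eMC CIC-DUX4 rose against eMC empty by 3.68 ± 0.81 for 1452982_PM_at (adjusted p = 0.0037; quantile 1.5) and by 4.70 ± 0.86 for 1428967_PM_at (adjusted p = 0.00128; quantile 2.14 ± 0.25), while the values against eMC empty 7 alone were 1.30 and 1.74. For 1426565_PM_at the culture comparison gave 3.42 ± 0.70 as deposited and -0.22 ± 0.16 after quantile normalization. In eMC empty 7, the array of that group with the highest 75th percentile, these probe sets were at 9.31, 8.43 and 7.72, above the dip. ES against eMC empty gave a lowest adjusted p of 0.388 as deposited, and -3.07 to -2.17 after quantile normalization, where all 3 were called. The untested probe set 1452108_PM_at lay between 1.90 and 6.65 in all arrays.

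Igfbp2, a binding protein abundant in embryonic tissue, was high in both kinds of tumor. Its probe set 1454159_PM_a_at had log2 signals of 12.63, 13.84 and 14.02 (lowest, median and highest) in CDS tumors and 12.53, 12.95 and 13.04 in ES tumors. In eMC CIC-DUX4 it was at 10.23, 10.10, 10.25 and 10.30, and in eMC empty at 4.55, 5.07, 4.63 and 6.96. The tumor groups overlapped and lay above both cultures, and eMC CIC-DUX4 lay above eMC empty. Igfbp2 rose by 8.28 ± 0.58 in CDS tumors (adjusted p = 2.43e-09; quantile 5.89 ± 0.27) and by 7.56 ± 0.44 in ES tumors (adjusted p = 2.03e-07; quantile 5.40 ± 0.22), each against eMC empty. eMC CIC-DUX4 rose against eMC empty by 4.92 ± 0.55 (adjusted p = 6.22e-05; quantile 1.99 ± 0.16), and the value against eMC empty 7 alone was 3.25. CDS tumors rose against eMC CIC-DUX4 by 3.36 ± 0.30 (adjusted p = 3.28e-06; quantile 3.89 ± 0.23). CDS against ES tumors differed by 0.72 ± 0.24 log2 (quantile 0.49 ± 0.22), under the minimum change.

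Igfbp3, the main carrier of IGFs in blood, was bright in every array. Its log2 signals were 13.95, 14.72 and 16.01 (lowest, median and highest) in CDS tumors and 11.72, 12.55 and 13.85 in ES tumors. In eMC CIC-DUX4 they were 12.65, 12.50, 12.88 and 12.93, and in eMC empty 14.39, 14.70, 14.26 and 13.97. Each CDS tumor was above each ES tumor and each eMC CIC-DUX4 array, and within the range of eMC empty or above it in all but 1 tumor. Igfbp3 rose in CDS tumors by 2.22 ± 0.35 against ES tumors (adjusted p = 0.000188; quantile 1.87 ± 0.34) and by 2.08 ± 0.29 against eMC CIC-DUX4 (adjusted p = 0.000194; quantile 1.48 ± 0.07). Between eMC CIC-DUX4 and eMC empty it gave -1.59 ± 0.16 as deposited and -0.60 ± 0.03 after quantile normalization, so the difference passed on 1 scale only. ES against eMC empty likewise gave -1.73 as deposited (adjusted p = 0.00268) and -1.003 after quantile normalization (adjusted p = 0.0670).

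Igfbp4, a substrate of PAPP-A, was highest in CDS tumors. The brightest of its 6 probe sets, 1437405_PM_a_at, had log2 signals of 13.74, 14.37 and 15.42 (lowest, median and highest) in CDS tumors and 11.18, 11.45 and 13.21 in ES tumors. In eMC CIC-DUX4 it was at 12.03, 11.93, 12.14 and 12.19, and in eMC empty at 12.57, 12.42, 12.05 and 12.08. All 6 CDS tumors lay above all arrays of the other 3 groups. Igfbp4 rose in CDS against ES tumors in 6 of 6 probe sets, by 2.69 to 4.31 log2 (quantile 2.54 to 4.94; for 1437405_PM_a_at 2.69 ± 0.32, adjusted p = 8.13e-06). It rose in CDS tumors against eMC empty in 5 of 6 probe sets, by 2.03 to 6.13, with 2.13 ± 0.29 for the brightest (adjusted p = 2.67e-05; quantile 2.24 ± 0.10). Against eMC CIC-DUX4 it rose in 5 of 6 probe sets too, with 2.34 ± 0.26 for the brightest (adjusted p = 2.91e-05; quantile 1.90 ± 0.09). Of these, 1421992_PM_a_at was lost without the 3 arrays of high median (2.09, adjusted p = 0.108).

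The probe sets of Igfbp4 differed in the size of the change against eMC empty. The dimmer 1423757_PM_x_at, 1421992_PM_a_at and 1423756_PM_s_at rose in CDS tumors by 6.13, 4.99 and 3.93, and without the 6 arrays of low 75th percentile by 2.82, 2.98 and 2.59. The brightest gave 2.03 without them, so the sizes then lay close together. The dimmest, 1421991_PM_a_at, was not called against either culture as deposited; against ES tumors it was higher by at least 2.67-fold, by 3.59 ± 0.97 log2 and 5.53 without the 6 arrays. The call of 1437406_PM_x_at against ES tumors was lost without those arrays (3.31, adjusted p = 0.0582). The brightest probe sets, 1437405_PM_a_at and 1437406_PM_x_at, gave -0.21 ± 0.17 and -0.19 ± 0.19 in eMC CIC-DUX4 against eMC empty. The dimmer 1423757_PM_x_at, 1421992_PM_a_at and 1421991_PM_a_at were called higher there as deposited (3.55, 2.97 and 2.77) but gave 0.22, -0.76 and -0.81 after quantile normalization, and 1423756_PM_s_at was not called (1.07, adjusted p = 0.140). Probe sets whose names end in s_at or x_at hold probes that may match other transcripts, so 1423756_PM_s_at, 1423757_PM_x_at and 1437406_PM_x_at are less certain than the rest.

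Igfbp5, a substrate of both pappalysins, was dimmer and more variable. Its log2 signals were 7.27, 9.53 and 11.35 (lowest, median and highest) in CDS tumors and 4.94, 7.94 and 9.18 in ES tumors. In eMC CIC-DUX4 they were 7.39, 7.34, 6.57 and 4.03, and in eMC empty 3.07, 3.89, 4.91 and 4.79, all 4 below the dip. CDS tumors lay above every eMC empty array and overlapped with the other groups. Against eMC empty, Igfbp5 in CDS tumors was higher by at least 6.07-fold (5.29 ± 0.95 log2, adjusted p = 0.000481; quantile 3.81 ± 0.85). CDS tumors rose against eMC CIC-DUX4 by 3.12 ± 0.88 (adjusted p = 0.0245; quantile 5.11 ± 0.55), a call lost without CDS 6, eMC CIC-DUX4 7 or eMC CIC-DUX4 8 (highest adjusted p 0.0773) and without the 3 arrays of high median (adjusted p = 0.0708). ES against eMC empty gave 3.34 as deposited (adjusted p = 0.0115) and 1.24 after quantile normalization (adjusted p = 0.234). CDS against ES tumors gave 1.94 ± 0.81 as deposited (adjusted p = 0.0874) and 2.57 ± 0.55 after quantile normalization.

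Stromal markers also differed between the groups. The 10 endothelial markers, among them Pecam1, Cdh5 and Kdr, had summed linear signals of 9485 to 12756 in CDS tumors, 826 to 6098 in ES tumors, 351 to 1603 in eMC CIC-DUX4 and 44.6 to 76.2 in eMC empty, where all 10 were below the dip. Of the 10, 7 were above the dip in most CDS tumors, 6 in most ES tumors and 2 in most eMC CIC-DUX4 arrays, with Vwf and Tie1 below it in all ES and eMC CIC-DUX4 arrays that have a dip. The 4 pericyte markers on the array, among them Rgs5, summed to 17785 to 66446 in CDS tumors and 3405 to 14017 in ES tumors. The sum was 1574 to 1931 in eMC CIC-DUX4 and 40.0 to 425 in eMC empty. In all arrays of eMC empty Rgs5, Kcnj8 and Higd1b lay under the dip. Rgs5 was the brightest of the 4 in both kinds of tumor, with log2 means of 14.80 in CDS and 12.61 in ES tumors. The others did not share its order: Kcnj8 averaged 7.16 in CDS tumors, 7.95 in ES tumors and 8.98 in eMC CIC-DUX4. Notch3 averaged 9.89, 9.11 and 10.11, and Higd1b 3.28, 3.63 and 2.83. Only 2 of the 4 were above the dip in most CDS tumors, against 3 in ES tumors and 3 in eMC CIC-DUX4. In eMC empty, where all 10 endothelial markers were below the dip, Igfbp3 was at 13.97 to 14.70 and Igfbp4 1437405_PM_a_at at 12.05 to 12.57. Igfbp5 was below the dip in all 4 eMC empty arrays. Endothelium and pericytes express several IGF binding proteins. The part of these cells in the higher Igfbp3, Igfbp4 and Igfbp5 signals of CDS tumors was not tested. Macrophage markers summed to 14106 to 74598 in CDS tumors, 21141 to 63498 in ES tumors, 20763 to 26227 in eMC CIC-DUX4 and 21942 to 32448 in eMC empty. Lyz2 averaged 14.61 in eMC empty, where only 2 of the 10 markers were above the dip in most arrays. C1qa, C1qb, C1qc, Csf1r and Ptprc were below it in every eMC empty array. Of the 10, 9 were above it in most CDS tumors, 10 in most ES tumors and 8 in most eMC CIC-DUX4 arrays. Adipocyte markers summed to 4898 to 33441 in CDS tumors, 4053 to 18880 in ES tumors, 23753 to 31699 in eMC CIC-DUX4 and 47072 to 83304 in eMC empty, and keratinocyte markers to 28.7 to 391, 338 to 12458, 2433 to 2913 and 798 to 1582 in the same order of groups.

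**Figure D2:**
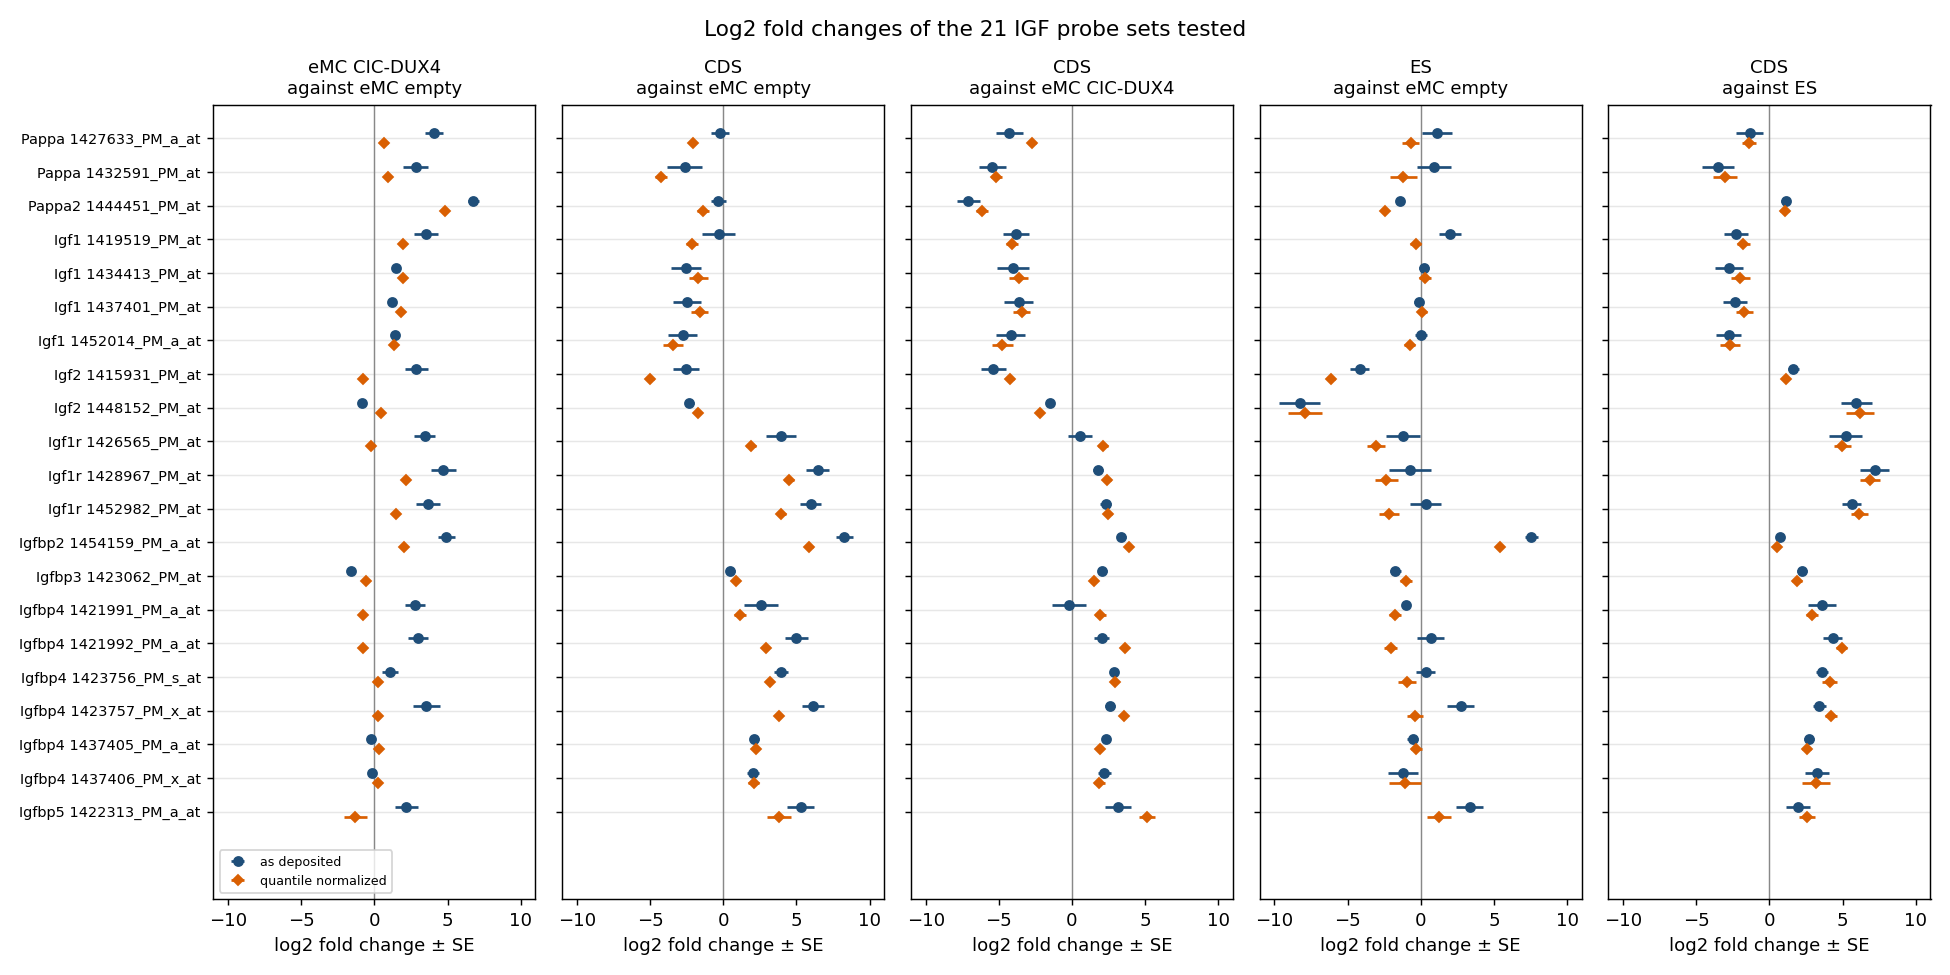
Log2 fold change with its SE (horizontal axis) for each of the 21 tested IGF probe sets in the 5 comparisons, on the deposited scale (circles) and after quantile normalization (diamonds). Igf1r and Igfbp4 lie to the right of 0 in CDS against ES tumors on both scales, and Pappa2 lies at 6.75 and 4.79 in eMC CIC-DUX4 against eMC empty.

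Counted over the 21 tested probe sets, each comparison can be read against the whole array. In eMC CIC-DUX4 against eMC empty 17 were called as deposited (16 higher, 1 lower), where 47.5% of all 26897 probe sets tested were called; 8 rose, against 7.04% of all that were called higher on both scales. The 1 called lower, Igfbp3, was not called after quantile normalization, and 0.305% of all were called lower on both scales. The median log2 fold change of the IGF probe sets was 2.81 against 1.98 for all (quantile 0.45 against -0.01). The probe sets that rose were those of Pappa2, Igf1, Igf1r and Igfbp2. In CDS tumors against eMC empty 11 were called as deposited (18.1% of all); 10 rose and 1 fell (12.0% and 3.66% of all), with a median of 2.03 against 0.89 for all. In CDS tumors against eMC CIC-DUX4 19 were called (16.6% of all); 10 rose and 9 fell (3.44% and 11.9% of all), with a median of 0.55 against -0.94 for all. Those that rose belonged to Igf1r, Igfbp2, Igfbp3, Igfbp4 and Igfbp5, and those that fell to Pappa, Pappa2, Igf1 and Igf2.

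The ES tumors gave fewer changes against the culture and more against CDS tumors. In ES tumors against eMC empty 9 were called as deposited (35.6% of all); 1 rose, that of Igfbp2, and 2 fell, both of Igf2 (13.6% and 7.73% of all were called higher and lower on both scales). Pappa2 and Igfbp4 1421991_PM_a_at were also called lower on both scales, but lay below the dip in every array of both groups. The median was 0.02 against 0.41 for all. In CDS against ES tumors 17 were called (19.8% of all), and 12 rose and 4 fell. Counting Pappa2, which lay below the dip in every array of both groups, 13 were called higher on both scales. Of all probe sets, 8.74% and 8.61% were called higher and lower on both scales. The median was 2.22 against 0.21 for all (quantile 2.54 against -0.03). Probe sets of 1 gene share their target, and the comparisons share arrays (CDS tumors enter 3 of the 5, and so does eMC empty), so these counts are not independent of each other. With arrays shifted to the same median, which moved the median of all probe sets in eMC CIC-DUX4 against eMC empty to 0.42 and left 0 of 26897 probe sets called there by limma, 4 of the 21 IGF probe sets had an unadjusted p under 0.05. The same shift left 4 called in CDS tumors against eMC CIC-DUX4, those of Pappa, Pappa2 and Igf2 1415931_PM_at.

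The IGF genes took different places in the CDS arrays of low 75th percentile. In CDS 5 and CDS 6, whose 75th percentiles were 5.25 and 4.83, Igf1 was at 5.91 and 6.76, under the other CDS tumors, while Igf1r was at 13.48 and 14.17 in 1452982_PM_at and Igfbp2 at 13.97 and 14.02, at or near the top of their group. The dimmer Igf1r probe set 1426565_PM_at was lowest of its group in CDS 5, at 5.81, and highest in CDS 6, at 10.65. CDS 1, with a 75th percentile of 5.39, had Igf1 at 11.49. The excess of 3′ over 5′ Actb signal was 1.16 and 1.28 log2 in CDS 5 and CDS 6, the largest of the 20 arrays. It was 0.76 in CDS 1, and its part in these values was not tested. Without the 6 arrays of low 75th percentile the direction of all changes named above was the same, and the number still called was 19 of 19 in CDS tumors against eMC CIC-DUX4 and 12 of 16 in CDS against ES tumors. The comparisons with eMC empty keep only 1 array of it there, and their counts are not given.

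**Figure D3:**
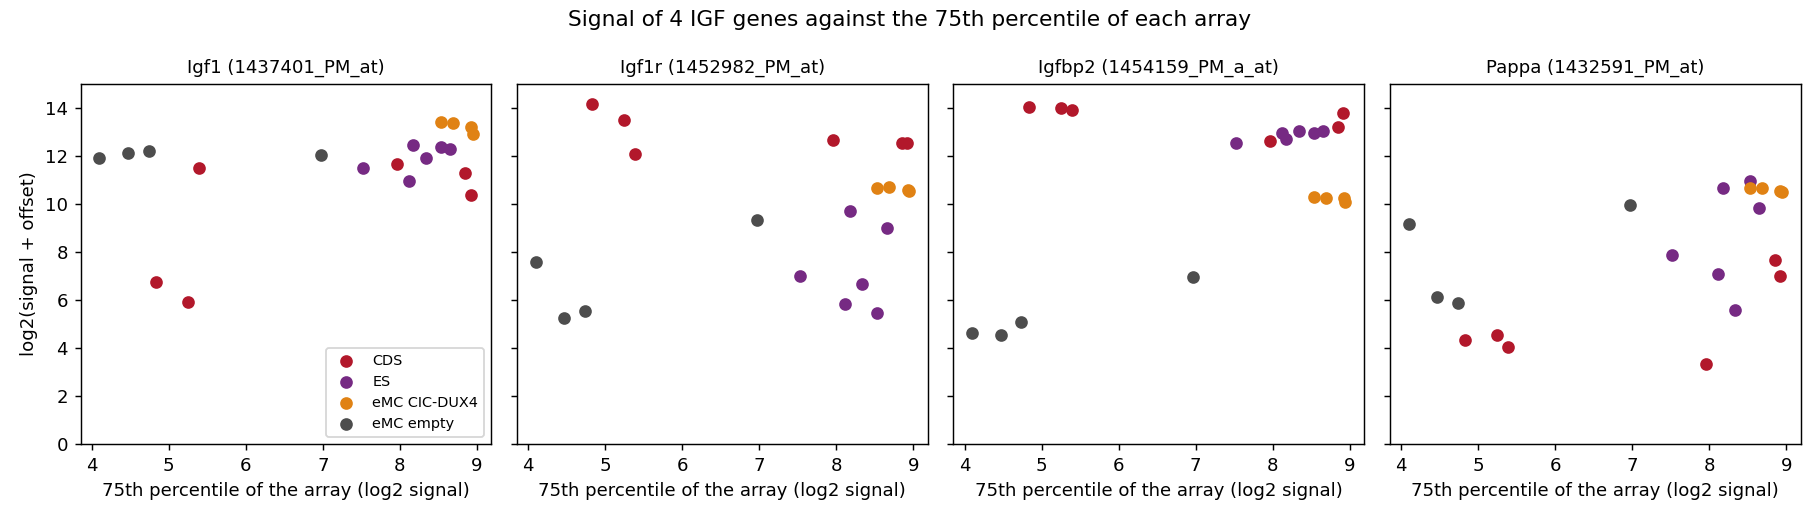
Log2 signal (plus the offset) of Igf1, Igf1r, Igfbp2 and Pappa in each of the 20 arrays against the 75th percentile of the log2 signal of that array, coloured by group. The CDS arrays at 4.83 and 5.25 have the lowest Igf1 but high Igf1r (1452982_PM_at) and Igfbp2.

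The wider IGF system was described with 41 other genes, 34 of them on the array and 27 tested, each by its brightest probe set. In eMC CIC-DUX4 against eMC empty 13 were called as deposited, 10 higher and 3 lower, a share close to the 47.5% of all probe sets, and 4 of them rose (7.04% of all). These genes were not recomputed with arrays left out. Stc1, which encodes stanniocalcin-1, an inhibitor of pappalysins, was higher by at least 5.44-fold (eMC CIC-DUX4 log2 mean 9.29 ± 0.09 against 4.01 ± 0.30 in eMC empty, SD, n = 4 each; fold change 5.28 ± 0.35, quantile 1.92 ± 0.14). The insulin receptor gene Insr rose by 4.50 ± 0.66 (quantile 1.46 ± 0.12), the binding protein gene Igfbp6 by 3.48 ± 0.85 (quantile 1.37 ± 0.10) and the adaptor gene Irs1 by 1.17 ± 0.31 (quantile 1.00 ± 0.06), which for Irs1 is less than the median of all probe sets. The median of the 27 was 1.44 against 1.98 for all probe sets tested.

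In CDS tumors against eMC CIC-DUX4 1 gene of the 27 rose and 6 fell (3.44% and 11.9% of all probe sets). Igfbp6 fell by 5.72 ± 1.04 log2 (quantile -5.92 ± 0.48), the RNA-binding protein gene Igf2bp1 by 4.76 ± 0.93 (quantile -3.52 ± 0.24), the adaptor gene Grb14 by 4.30 ± 0.91 (quantile -3.29 ± 0.61) and Htra1, a protease that cuts binding proteins, by 3.89 ± 0.82 (quantile -3.79 ± 0.54). In CDS tumors against eMC empty 4 rose and 5 fell (12.0% and 3.66% of all). Stc2, the other stanniocalcin gene, was higher by at least 5.23-fold (log2 mean 9.24 ± 1.78 in CDS tumors, n = 6, against 3.51 ± 0.45 in eMC empty, n = 4; SD). Insr rose by 5.21 ± 0.75 (quantile 2.78 ± 0.27) and Igf2bp3, which encodes an RNA-binding protein of Igf2 transcripts, by 3.62 ± 0.68 (quantile 2.65 ± 0.20), and Htra1 fell by 3.33 ± 0.82 (quantile -2.67 ± 0.53).

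In CDS against ES tumors 4 of the 27 rose and 1 fell (8.74% and 8.61% of all). Of these 5, 4 were the genes listed as regulators of Igf2 or of its RNA, and they did not move in 1 direction. Hmga2, a chromatin protein gene of embryonic mesenchyme, rose by 10.25 ± 0.83 log2 (adjusted p = 4.01e-08; quantile 9.66 ± 0.65), with a mean of 13.64 ± 0.47 in CDS and 3.39 ± 2.19 in ES tumors (SD, n = 6 each). Plagl1, an imprinted zinc finger factor known to activate Igf2, rose by 4.00 ± 0.52 (adjusted p = 1.98e-05; quantile 4.92 ± 0.51), and Igf2bp3 by 3.96 ± 1.04 (quantile 4.37 ± 1.09). Igf2bp1 fell by 3.99 ± 1.22 (quantile -3.74 ± 0.79), with groups that overlap. In ES tumors against eMC empty 2 rose and 7 fell (13.6% and 7.73% of all). Hmga2 fell by 10.09 ± 1.02 (quantile -9.11 ± 0.80), Plagl1 by 6.88 ± 0.56 (quantile -7.14 ± 0.60), Grb14 was at least 8.32-fold lower in ES tumors and Stc2 at least 2.62-fold higher.

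**Figure D4:**
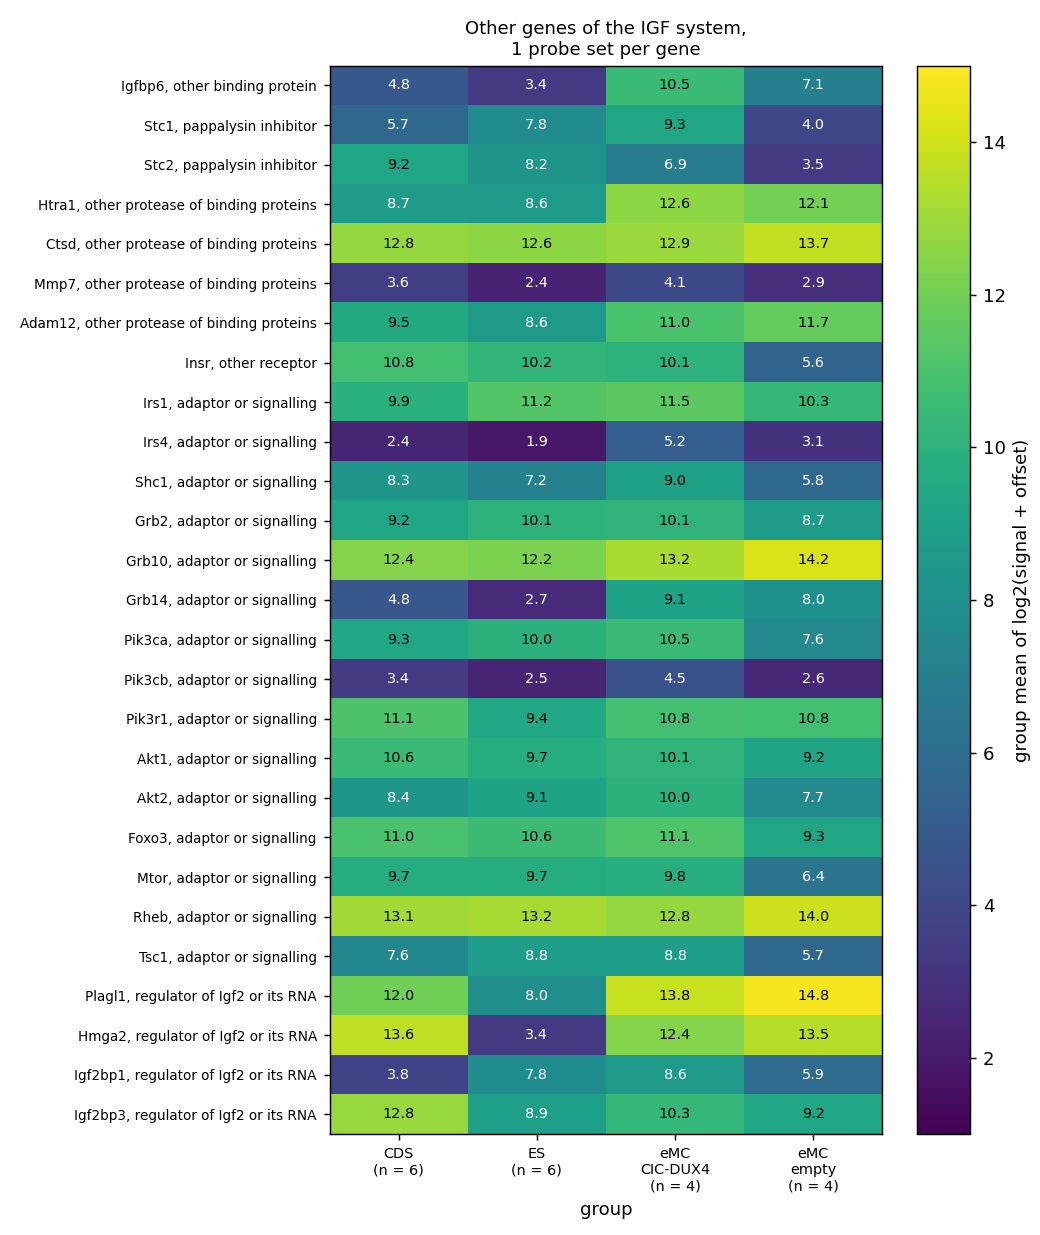
Group means of log2 signal (plus the offset) for the 27 tested other genes of the IGF system, 1 probe set per gene, by role (rows) and group (columns); brighter colour and the printed number give the mean. Hmga2 and Plagl1 average 3.39 and 7.95 in ES tumors and 11.95 or more in the other groups.

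For each IGF gene the most similar genes over the 20 arrays were found among 12343 genes, as the smallest mean absolute difference of quantile-normalized log2 values, each centred on its own mean. The values are descriptions, since the arrays share groups and scaling. They depend on how much a gene varies and do not rank the matches between genes. The mean absolute deviation of the IGF gene itself lay between 0.73 for Igfbp3 and 3.07 for Igf2. Plagl1 was nearest to Igf2 (0.76), followed by Tshz1 (0.87). Pappa2 was nearest to Hapln1 (0.59) and Slc14a1 (0.66), and Pappa to Lrch2 (0.64) and Zc4h2 (0.73). For Igf1r these were Gnb4 (0.49) and Dkk3 (0.50), and for Igf1 Tceanc and Pla2g12a (0.51 each). Among the binding proteins, Igfbp2 was nearest to Tbx3 (0.41) and Coro1a (0.51), Igfbp3 to Ext1 (0.27) and Clcn7 (0.32), Igfbp4 to Gab2 (0.30) and Sgms1 (0.32), and Igfbp5 to Dusp4 (0.78) and C1qtnf9 (0.82).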

How the data were processed

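The authors deposited 1 table of log2 signals for 45141 probe sets on 20 arrays; MAS5 is named in the submitters' processing notes, while its version, background and scaling settings were not found in the labels. The plan allowed linear or log2 values; these proved to be log2 and were made linear again and taken as log2(signal + 1.42305), an offset of 0.25 times 5.69, which is the middle value of the array medians. All columns matched a sample (0 did not), and 0 pairs of arrays were identical. After removal of 104 controls, probe sets above the median of their array on at least 4 of 20 arrays entered (26897). The array's gene table gave 28898 probe sets 1 symbol, 551 several and 15588 none. Pairs of groups were compared with limma 3.58.1 under R 4.3.3 (lmFit, then eBayes with a trend), two-sided, with Benjamini-Hochberg adjustment over all 26897, and again after quantile normalization. The dip is the lowest kernel density (bandwidth 0.35) between the dim and bright parts of an array. "At least" folds set the brighter group's mean against, per dim array, the higher of dip and signal. The number of arrays limits precision. All IGF genes of the list were named, then up to 4 other IGF genes per comparison that changed on both scales, by deposited fold change, and the 2 nearest genes of each. Members, lists and thresholds were chosen with earlier results of these data known. Other offsets, filters, scalings, spread models, probe set summaries, thresholds and fits, a replicate block and left-out arrays were tried. The fits were tested on simulated data. Promoter sequences are from RefSeq.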

Additional observations from a re-analysis of the deposited data

Results flagged for a closer look

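Within the groups of 4 or 6 arrays, 92 combinations of a probe set and a group were examined for an array far from the others, and 10 were found; chance gives about 1 in 20, or 4.6. All values are log2 signals with the offset.

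In eMC empty 7, the array with the highest 75th percentile of its group, 3 probe sets were far above the other 3 arrays: Igf2 1415931_PM_at at 8.58 (others 4.94 to 5.44), Igfbp4 1421992_PM_a_at at 8.10 (others 4.93 to 5.08) and Igfbp4 1423757_PM_x_at at 9.35 (others 4.59 to 5.29). In CDS 5, an array of low 75th percentile, 2 probe sets were far below: Igf1r 1426565_PM_at at 5.81 (others 9.16 to 10.65) and Igfbp4 1421992_PM_a_at at 9.23 (others 10.97 to 11.20). CDS 1 was low for Igf1r 1428967_PM_at, at 10.97 (others 11.90 to 12.30). ES 46 was high for Igfbp4 1423756_PM_s_at, at 12.12 (others 9.02 to 9.95), and for 1437405_PM_a_at, at 13.21 (others 11.18 to 11.62). ES 41 was low for Igfbp4 1437406_PM_x_at, at 5.97 (others 11.26 to 13.06), while the neighbouring probe set 1437405_PM_a_at was at 11.18 in the same array. eMC CIC-DUX4 8 was low for Igf2 1415931_PM_at, at 8.27 (others 9.03 to 9.18).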

How the results depend on the processing

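Of 2547 values that 105 fold changes took under the alternatives, 2290 kept their side of the threshold, 46 of them with another sign but called under neither setting, 191 kept the direction but were no longer called, 50 became called and 16 turned. For eMC CIC-DUX4 against eMC empty, 17 IGF probe sets were called as deposited, 8 after quantile normalization and, with arrays shifted to the same median, 0 by limma (4 at an unadjusted p under 0.05); taken per gene, 7 were called with 1 probe set and 9 with the mean of the probe sets. Without the 3 arrays of high median (CDS 2, eMC CIC-DUX4 5 and 6) 11 were called, and also 11 without the 6 arrays of low 75th percentile, an alternative chosen after seeing the data that leaves 1 eMC empty array. For CDS tumors against eMC empty the 11 became 20 after quantile normalization and 5 per gene either way. For CDS tumors against eMC CIC-DUX4 the 19 became 4 at the same median, 9 per gene either way and 12 without the 3 arrays. For ES tumors against eMC empty the 9 became 5 per gene either way, 5 at an adjusted p under 0.01 and 2 without the 6 arrays. For CDS against ES tumors the 17 became 6 with 1 probe set per gene, 5 with their mean and 11 at an adjusted p under 0.01. Counts per gene are out of 9 genes tested and not 21 probe sets, and their fits and adjustment were redone over 12343 genes. The cause of these shifts was not tested for any setting.

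In eMC CIC-DUX4 against eMC empty, quantile normalization turned Igf2 1415931_PM_at (-0.79), Igfbp4 1421991_PM_a_at (-0.81) and 1421992_PM_a_at (-0.76), Igfbp5 (-1.30) and Igf1r 1426565_PM_at (-0.22). The same median turned Igf1 1434413_PM_at (-0.10), 1437401_PM_at (-0.39) and 1452014_PM_a_at (-0.14), and the mean of probe sets turned Igfbp4 (1.66) and Igf2 (1.00). Quantile normalization also turned Igfbp4 1421991_PM_a_at in CDS tumors against eMC CIC-DUX4 (1.93) and, in ES tumors against eMC empty, Igf1 1419519_PM_at (-0.36), Igfbp4 1421992_PM_a_at (-2.05) and 1423757_PM_x_at (-0.42), and Igf1r 1452982_PM_at (-2.17); without the 6 arrays 1423757_PM_x_at was at -0.54. None of these was said to change in the comparison concerned, except the 3 Igf1 probe sets.

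With each array left out in turn the counts were 15 to 17 for eMC CIC-DUX4 against eMC empty, 11 to 13 for CDS tumors against eMC empty, 18 to 20 against eMC CIC-DUX4, 6 to 9 for ES tumors against eMC empty and 12 to 18 for CDS against ES tumors. Whether the replicate numbers pair the samples was not settled: as deposited, same-numbered arrays correlated by -0.21 to 0.51. In CDS tumors against eMC empty the same-numbered array was the closest for number 5 (0.51) but not for number 4 (-0.21). After quantile normalization it was the closest for numbers 4, 5 and 6 there, at 0.02, 0.04 and 0.03. On that scale it was the closest for none in the other comparisons. With the number as a replicate block the counts were 16 for eMC CIC-DUX4 against eMC empty, 14 for CDS tumors against eMC empty and 17 against eMC CIC-DUX4. Signals below the dip set no order between arrays.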
